A study of Mus musculus with 12 samples.

Results

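The mTOR kinase works in 2 multiprotein complexes, and the genes for their subunits and assembly factors were followed here in mouse neural progenitor cells. The set holds 10 genes, picked out by symbol as parts of the complexes, with earlier results of these data known: Mtor, Rptor, Rictor, Mlst8, Deptor, Akt1s1, Mapkap1, Prr5, Telo2 and Tti1. All 10 were found by symbol among the 53351 genes of the deposited table, and all 10 were among the 20240 genes that passed the filter on low values.

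The cells were wild-type primary progenitors from the cerebral cortex of E13.5 mouse embryos, grown overnight with bFGF and EGF. They received 250 nM Torin1 or the solvent DMSO for 2 h, and all cultures then received cycloheximide at 100 ug/ml for 5 min, which halts ribosomes on their mRNAs. Torin1 competes with ATP at the mTOR kinase and blocks both complexes. A 10% portion of each lysate served as total mRNA. Polysome mRNA came from the sucrose gradient fractions in which an mRNA carried more than 3 ribosomes. The 4 groups were total mRNA of Torin1 cells, total mRNA of DMSO cells, polysome mRNA of Torin1 cells and polysome mRNA of DMSO cells, each with 3 biological replicates, 12 libraries in all. Whether the replicates came from separate litters is not given in the labels.

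As background, mTORC1 and mTORC2 share the kinase mTOR, its partner mLST8 and the inhibitor DEPTOR. Raptor (Rptor) brings substrates to mTORC1, and PRAS40 (Akt1s1) restrains that complex until it is phosphorylated. Rictor, SIN1 (Mapkap1) and Protor-1 (Prr5) belong to mTORC2, which phosphorylates AKT, SGK and PKC kinases. TELO2 and TTI1, with TTI2, form the TTT co-chaperone, which helps newly made mTOR and the other kinases of its family fold and assemble. Active mTORC1 favours translation of mRNAs that begin with a C followed by a run of pyrimidines, the 5′ terminal oligopyrimidine (TOP) motif, and in the developing cortex mTOR signalling affects progenitor growth and brain size.

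Because mTORC1 acts on mRNAs through their first bases, annotated start sites were read from RefSeq's table of GRCm38.p6 promoters (9 of 10 genes, 12 windows; Deptor is not among them). Shown here are those of the kinase, its shared partner, the subunits particular to 1 complex that are described most below and the gene with a TOP-like start, while Mapkap1, Telo2 and Tti1 were read but are not printed. Each run holds 10 bases before the start and the first 20 bases of the transcript, and the capitals mark the first 5 transcribed bases, the letters on which a TOP motif is judged. Eif3f, which is no member but is described below, is added because its mRNA fell in polysome mRNA relative to total mRNA.
Mtor, chr4:148448572-148448601, + strand: cctccccaccTCCCTggcctagaagacagc
Rptor, chr11:119602895-119602924, + strand: gggggaagggAGGACggaacaccgagctct
Rictor, chr15:6708371-6708400, + strand: ggtttccggtGTTGTgactgaaacccgtca
Mlst8, chr17:24479059-24479088, - strand: tcggcccggcTTCTAtcgactagctcctcc
Akt1s1, chr7:44850362-44850391, + strand: ttgtgttcctAGAGCaggggcctctctggg
Prr5, first start, chr15:84663196-84663225, + strand: tccctcccccAGGCTgtccgggctctgcgt
Prr5, other start, chr15:84680988-84681017, + strand: ccccggcctgCTTTTgcgctccgagcgctc
Eif3f, chr7:108934405-108934434, + strand: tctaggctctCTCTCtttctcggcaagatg
Among the members, 1 of 9 genes, Prr5 at 1 of its starts, had a C followed by at least 4 pyrimidines at the annotated start. Counted by window, this was 1 of 12. Of all 32851 windows in the table, 823 (2.51%) had it. The Mtor start is rich in pyrimidines but opens with a T, and the Rptor, Rictor and Akt1s1 starts open with a purine. An annotated start need not be the one these cells used. The gene spans of Rictor, Mlst8 and Akt1s1 given below reach further upstream than the starts printed here, so other annotated starts of these genes were not read.

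Values are abundances on a parts-per-million (ppm) scale, rescaled per library from the deposited signal. They give each mRNA's share of its library, so the absolute quantity of polysome mRNA was not measured. Column totals ran from 14341674 to 19201406, and since these are not reads, the depth in reads is unknown. Within groups Pearson's r across 9351 expressed genes lay between 0.9627 and 0.9844; genes are not independent replicates. Total Torin1 replicate 2 stood apart in the small nuclear RNA Rn7sk, at 2069 ppm against 38.7 to 183 ppm in the other 5 total libraries. Folds are log2 of Torin1 over DMSO, or of polysome over total mRNA, on a log2(value + 1) scale, ± the standard error (SE), tested with limma and adjusted by Benjamini-Hochberg over all 20240 genes at 0.05. The marker genes of radial glia summed to 3890 to 3980 ppm in total Torin1 and 3430 to 3530 ppm in total DMSO libraries, and those of neurons to 2300 to 2400 and 2210 to 2280 ppm, while those of microglia reached at most 4.82 and 4.67 ppm. Red blood cell globin genes summed to 1250 to 1460 ppm in total Torin1 and 1160 to 1240 ppm in total DMSO libraries, so RNA of red blood cells was present too.

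All 10 genes were above 0 in every library. Since the lowest nonzero values in the table were smaller in longer genes (a median of 0.873 ppm for genes spanning 200 to 500 bases and 0.118 ppm for those spanning 1000 to 2000 bases), the deposited unit behaves as one per length, though the labels do not state it; the order of genes below rests on that. In total DMSO libraries the mean levels ran from Akt1s1 at 124 ppm and Mapkap1 at 63.9 ppm, through Mtor at 23.9, Rptor at 20.9, Mlst8 at 16.4, Telo2 at 12.7, Deptor at 10.7, Tti1 at 10.2 and Rictor at 9.42 ppm, to Prr5 at 3.22 ppm. The libraries of Telo2, Deptor, Tti1 and Rictor overlapped between neighbours in this order, and those of the other neighbours did not. The PRAS40 mRNA was thus the most abundant and the Protor-1 mRNA the least, in total mRNA of Torin1 cells as well (122 and 2.45 ppm). In polysome mRNA of Torin1 cells Akt1s1 (225 ppm) and Mapkap1 (72.6 ppm) again led and Prr5 (2.88 ppm) was last, whereas in polysome mRNA of DMSO cells Akt1s1 (215 ppm) and Mapkap1 (77.7 ppm) led and Deptor was last at 3.18 ppm, its libraries overlapping those of Prr5 at 3.68 ppm.

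**Figure D1:**
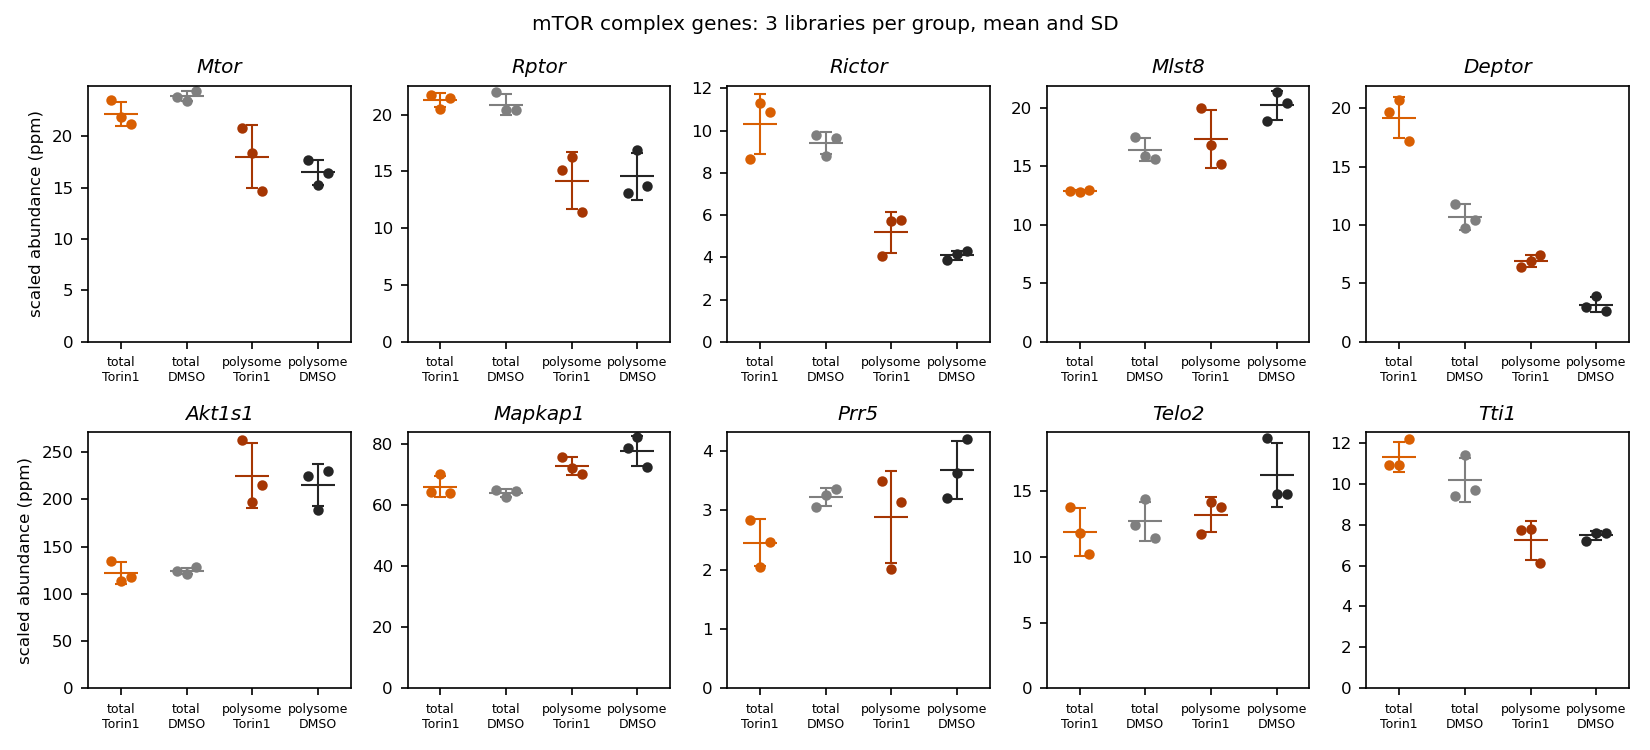
Scaled abundance (y axis, ppm, each panel with its own range starting at 0) of the 10 genes in each library, with the mean and SD of 3 libraries, for total Torin1, total DMSO, polysome Torin1 and polysome DMSO. Only Deptor has every Torin1 library above every DMSO library in both total mRNA (17.2 to 20.7 against 9.71 to 11.8 ppm) and polysome mRNA (6.40 to 7.44 against 2.67 to 3.92 ppm); over all genes 14.7% in total and 11.7% in polysome mRNA did so.

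The first comparison asked whether 2 h of mTOR inhibition changed the amounts of the complexes' own mRNAs. Deptor, the gene for the inhibitor that binds mTOR in both complexes, rose in total and in polysome mRNA. It was the 1 member of 10 that passed the test in each, and no member fell. Over all genes, 7.39% passed in total mRNA (3.04% higher and 4.35% lower) and 10.0% in polysome mRNA (4.57% higher and 5.45% lower), so 1 in 10 is close to the background share. The median log2 fold of the 10 genes was -0.00313 in total mRNA, against -0.0115 over all genes tested, and -0.0474 in polysome mRNA, against 0 over all genes tested. At an unadjusted p under 0.05 the count was 2 members in each comparison, Deptor and Mlst8.

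In total mRNA, Deptor (chromosome 15 from 55112317 to 55259273; this and the gene spans below are RefSeq's for GRCm38, the assembly of mm10) had 19.7, 20.7 and 17.2 ppm in Torin1 cells, against 11.8, 9.71 and 10.4 ppm in DMSO cells. Every Torin1 library lay above every DMSO library, as for 14.7% of all genes. The means were 19.2 ± 1.78 and 10.7 ± 1.09 ppm (SD, n = 3 each), a log2 fold of 0.85 ± 0.147 (SE; 95% interval 0.53 to 1.17; limma, adjusted p = 0.00555). In polysome mRNA Deptor had 6.40, 6.91 and 7.44 ppm in Torin1 cells, against 2.96, 3.92 and 2.67 ppm in DMSO cells, again without overlap (11.7% of all genes were higher without overlap). The means were 6.92 ± 0.518 and 3.18 ± 0.655 ppm (SD, n = 3 each), a log2 fold of 1.12 ± 0.147 (SE; 95% interval 0.80 to 1.44; limma, adjusted p = 0.000594). By size of fold it ranked 219 of the 615 genes that rose in total mRNA and 158 of the 925 that rose in polysome mRNA. With any 1 library left out the log2 fold lay between 0.78 and 0.92 in total mRNA and between 1.01 and 1.28 in polysome mRNA, and Deptor passed each time (highest adjusted p = 0.031 and 0.00407, limma). Without total Torin1 replicate 2, the library with high Rn7sk, Deptor had a log2 fold of 0.79 in total mRNA and remained the 1 member that passed, and 6 members in place of 7 passed in polysome against total mRNA of Torin1 cells.

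Markers of some cell types moved in the same comparisons. The 4 intermediate progenitor markers summed to 265 to 274 ppm in total Torin1 and 176 to 186 ppm in total DMSO libraries, and all 4 rose in total and in polysome mRNA. Of 5 meningeal fibroblast markers 3 rose in total mRNA, where they summed to 49.9 to 62.3 ppm in Torin1 and 29.0 to 35.9 ppm in DMSO libraries, and 2 rose in polysome mRNA. Of 8 radial glia markers 3 rose in each, but Fabp7, the most abundant, averaged 1860 ppm in total Torin1 and 2040 ppm in total DMSO libraries. In polysome mRNA the radial glia sums overlapped (4520 to 6910 ppm in Torin1 and 4960 to 6030 ppm in DMSO libraries). The neuron, interneuron, and endothelial and mural lists each had 1 marker that rose in each comparison. The oligodendrocyte lineage list had 1 of 5 that rose in total mRNA and none in polysome mRNA. Over all genes 3.04% were higher in total and 4.57% in polysome mRNA. No marker list had a member that fell, and none had a marker at 0 in all libraries. Their part in the Deptor result was not tested. In bulk samples such as these, more cells of a type and more RNA per cell cannot be told apart.

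Of the subunits common to both complexes, Mtor (chromosome 4 from 148448582 to 148557685) had 23.5, 21.9 and 21.2 ppm in total mRNA of Torin1 cells, against 23.8, 23.4 and 24.4 ppm in DMSO cells. The groups overlapped at 1 library, and the log2 fold of -0.11 had a 95% interval of -0.35 to 0.14 (limma, adjusted p = 0.653). In polysome mRNA Mtor had 20.8, 18.4 and 14.7 ppm in Torin1 cells, against 17.7, 15.3 and 16.4 ppm in DMSO cells. These overlapped widely (log2 fold 0.11, 95% interval -0.13 to 0.36; limma, adjusted p = 0.604). The mRNA of the drug's target thus showed no detectable change, within bounds of about these intervals.

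Mlst8, for the small partner that binds the mTOR kinase domain (chromosome 17 from 24473550 to 24479114), had 12.9, 12.8 and 13.0 ppm in total mRNA of Torin1 cells, against 17.5, 15.9 and 15.6 ppm in DMSO cells. All 3 Torin1 libraries lay below all 3 DMSO libraries, and over all genes 18.7% were without overlap in this direction. The log2 fold was -0.34 ± 0.102 (SE; 95% interval -0.56 to -0.12), with an adjusted p of 0.067 in limma, which missed the threshold. It passed with only the total libraries in the fit (adjusted p = 0.0208, limma) and among genes with a mean of at least 8 ppm (0.0447). In polysome mRNA it had 20.0, 16.8 and 15.2 ppm in Torin1 cells, against 18.9, 21.3 and 20.4 ppm in DMSO cells, where the groups overlapped through Torin1 replicate 1. The log2 fold there was -0.23 (95% interval -0.45 to -0.0082; limma, adjusted p = 0.19), and -0.34 without polysome Torin1 replicate 1 (adjusted p = 0.0286).

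**Figure D2:**
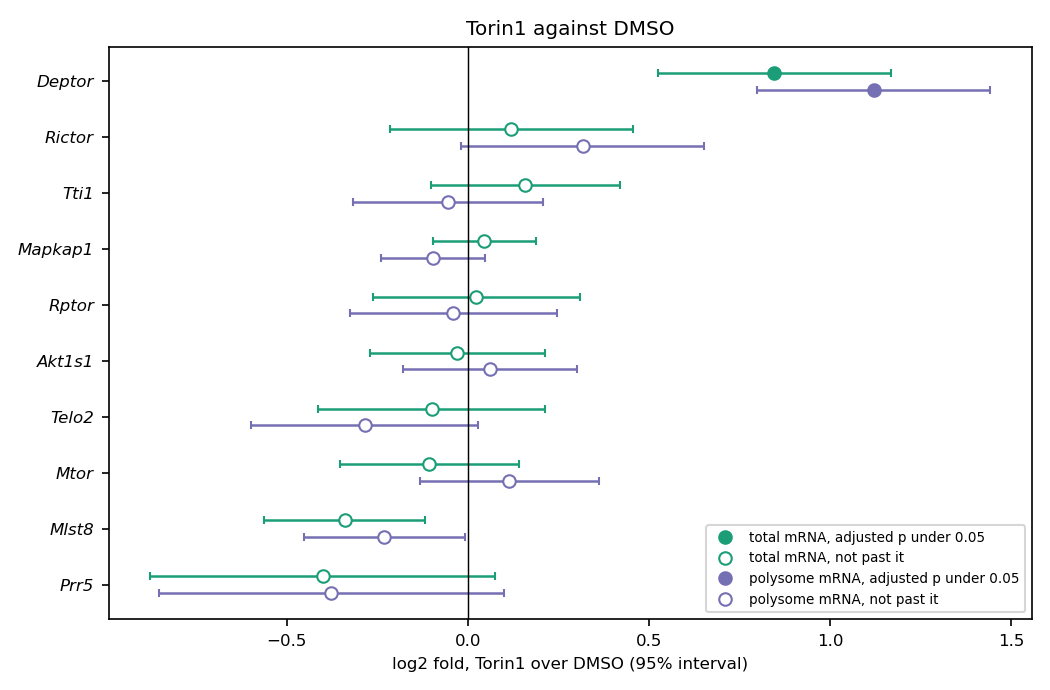
Log2 fold of Torin1 over DMSO (x axis) with its 95% interval for the 10 genes, in total mRNA and in polysome mRNA; filled circles passed an adjusted p of 0.05 in limma. Deptor is filled in both, at 0.85 and 1.12, and the other genes lie between -0.40 (Prr5 in total mRNA) and 0.32 (Rictor in polysome mRNA).

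Neither mTORC1 subunit passed. Rptor, the substrate-binding subunit (chromosome 11 from 119602905 to 119899591), had 21.7, 20.5 and 21.5 ppm in total mRNA of Torin1 cells and 22.0, 20.4 and 20.4 ppm in DMSO cells, which overlapped (log2 fold 0.02, 95% interval -0.26 to 0.31). In polysome mRNA Rptor had 15.1, 16.3 and 11.4 ppm in Torin1 cells and 13.1, 16.9 and 13.7 ppm in DMSO cells (log2 fold -0.04, 95% interval -0.33 to 0.25). Akt1s1, for the inhibitory subunit PRAS40 (chromosome 7 from 44849224 to 44855421), averaged 122 ± 11.4 ppm in total mRNA of Torin1 cells and 124 ± 3.24 ppm in DMSO cells, and 225 ± 34.3 ppm in polysome mRNA of Torin1 cells and 215 ± 22.2 ppm in DMSO cells (SD, n = 3 each). Its log2 folds were -0.03 (95% interval -0.27 to 0.21) and 0.06 (95% interval -0.18 to 0.30). The adjusted p of both genes was at least 0.793 in both comparisons (limma).

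Of the mTORC2 subunits none passed. Rictor, the scaffold of the complex (chromosome 15 from 6708349 to 6800401), had 8.68, 11.3 and 10.9 ppm in total mRNA of Torin1 cells and 9.78, 8.81 and 9.67 ppm in DMSO cells. In polysome mRNA it had 4.07, 5.73 and 5.77 ppm in Torin1 cells and 3.86, 4.16 and 4.29 ppm in DMSO cells. Torin1 replicates 2 and 3 were above all DMSO libraries there and replicate 1 was among them. The polysome log2 fold was 0.32 ± 0.154 (SE; 95% interval -0.018 to 0.65; limma, adjusted p = 0.234), and without polysome Torin1 replicate 1 it was 0.48 (adjusted p = 0.0391). Mapkap1, for SIN1, which presents AKT to the kinase (chromosome 2 from 34406771 to 34624958), had the narrowest intervals of the set, with log2 folds of 0.05 (95% interval -0.097 to 0.19) in total mRNA and -0.10 (95% interval -0.24 to 0.047) in polysome mRNA.

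Prr5, the least abundant of the set in total mRNA (chromosome 15 from 84663206 to 84706409), had 2.83, 2.04 and 2.47 ppm in Torin1 cells, against 3.06, 3.25 and 3.35 ppm in DMSO cells. All Torin1 libraries were below all DMSO libraries, as for 18.7% of all genes. The log2 fold of -0.40 ± 0.218 (SE) did not pass (95% interval -0.88 to 0.074, limma, adjusted p = 0.324). In polysome mRNA it had 3.49, 2.01 and 3.14 ppm in Torin1 cells and 3.21, 3.63 and 4.20 ppm in DMSO cells, with overlap and a log2 fold of -0.38 (95% interval -0.85 to 0.099).

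The TTT co-chaperone genes did not pass either. Telo2 (chromosome 17 from 25099569 to 25115974) had 13.8, 11.8 and 10.2 ppm in total mRNA of Torin1 cells and 12.4, 14.4 and 11.4 ppm in DMSO cells. In polysome mRNA it had 11.7, 14.2 and 13.8 ppm in Torin1 cells, against 19.0, 14.8 and 14.8 ppm in DMSO cells, without overlap (12.3% of all genes were lower without overlap in this comparison). Its polysome log2 fold was -0.28 (95% interval -0.60 to 0.029; limma, adjusted p = 0.255). Tti1 (chromosome 2 from 157981803 to 158028475) averaged 11.3 ± 0.747 ppm in total mRNA of Torin1 cells and 10.2 ± 1.07 ppm in DMSO cells, and 7.23 ± 0.94 ppm in polysome mRNA of Torin1 cells and 7.47 ± 0.223 ppm in DMSO cells (SD, n = 3 each), with log2 folds of 0.16 and -0.05.

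The next comparison asked whether Torin1 moved an mRNA onto or off polysomes beyond the change in its total amount, which is the polysome fold minus the total fold, both of Torin1 over DMSO. None of the 10 genes passed in limma, and none had an unadjusted p under 0.05. Over all genes 0.726% passed (0.0198% higher and 0.707% lower), or 147 genes, and 91 with each culture as a block. The total and polysome libraries of a culture share a lysate. Libraries of the same treatment and replicate number were taken as 1 culture, which the titles do not state. The differences ran from -0.21 for Tti1 (95% interval -0.58 to 0.16) and -0.19 for Telo2 to 0.22 for Mtor (95% interval -0.13 to 0.57) and 0.27 for Deptor (95% interval -0.18 to 0.73). The Deptor mRNA therefore rose in polysomes by an amount that could not be told from its rise in total mRNA. Prr5, the member with a TOP-like start, had a difference of 0.02 with a wide interval of -0.65 to 0.70. The median of the 10 genes was 0.0573, against 0.0297 over all genes.

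Polysome loading was compared next, as the scaled level in polysome mRNA over that in total mRNA within each treatment. This sets an mRNA's share of polysome libraries against its share of total libraries. It is not the fraction of its molecules on polysomes. In DMSO cells 3 members were higher and 5 lower in polysome mRNA, and in Torin1 cells 2 were higher and 5 lower. Over all genes 41.0% passed in DMSO cells (20.5% higher, 20.5% lower) and 39.6% in Torin1 cells (20.4% higher, 19.2% lower). Among the 9351 genes with a mean of at least 8 ppm, 6467 passed in DMSO cells and 6348 in Torin1 cells. Of the 8 members among those genes, 8 passed in DMSO cells and 6 in Torin1 cells. The medians of the 10 genes were -0.127 in DMSO cells, against -0.0348 over all genes, and -0.0891 in Torin1 cells, against -0.0215 over all genes.

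The member most depleted from polysomes was Deptor, at 3.18 ± 0.655 ppm in polysome and 10.7 ± 1.09 ppm in total mRNA of DMSO cells (SD, n = 3 each), a log2 fold of -1.74 (95% interval -2.06 to -1.42; limma, adjusted p = 3.05e-06). In Torin1 cells its log2 fold was -1.46 (95% interval -1.79 to -1.14; limma, adjusted p = 1.02e-05). Rictor followed, with log2 folds of -1.19 in DMSO and -0.99 in Torin1 cells (limma, adjusted p = 5.82e-05 and 0.00025). Rptor had -0.53 in DMSO and -0.59 in Torin1 cells and Tti1 -0.44 and -0.65, all past the threshold in limma. The Tti1 call in DMSO cells was lost without total DMSO replicate 2 (adjusted p = 0.0552). Every polysome library of these 4 genes and of Mtor lay below every total library of the same treatment, as did 27.3% of all genes in DMSO cells and 23.7% in Torin1 cells.

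Mtor itself was lower in polysome mRNA, with a log2 fold of -0.54 in DMSO cells (95% interval -0.78 to -0.29; limma, adjusted p = 0.00214). In Torin1 cells it had -0.32 (adjusted p = 0.0433), a call lost without any 1 of the 6 Torin1 libraries other than polysome replicate 1, with no filter on low values (0.0523) and with the Torin1 libraries alone in the fit (0.133). Without polysome Torin1 replicate 3 the log2 fold was -0.18 (adjusted p = 0.133). The other genes of mTOR's kinase family, looked at here after their values were seen, had the same direction. All 5 of them, Atm, Atr, Prkdc, Smg1 and Trrap, were lower in polysome mRNA of both treatments, where 20.5% of all genes in DMSO and 19.2% in Torin1 cells were lower, with a median log2 fold of -1.55 in DMSO and -1.41 in Torin1 cells, against -0.0348 and -0.0215 over all genes.

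Akt1s1, Mapkap1 and Mlst8 were the members found enriched on polysomes. Akt1s1 had 225, 189 and 230 ppm in polysome and 124, 121 and 128 ppm in total mRNA of DMSO cells, with every polysome library above every total library and a log2 fold of 0.79 (95% interval 0.55 to 1.03; limma, adjusted p = 0.000105). In Torin1 cells it had 263, 197 and 215 ppm in polysome and 135, 113 and 118 ppm in total mRNA, a log2 fold of 0.88 (limma, adjusted p = 5.07e-05). Mapkap1 had a log2 fold of 0.28 in DMSO cells (limma, adjusted p = 0.00421) and 0.14 in Torin1 cells (adjusted p = 0.12). Mlst8 had 0.41 in Torin1 cells (limma, adjusted p = 0.00591) and 0.31 in DMSO cells (adjusted p = 0.03). The Mlst8 call in DMSO cells was lost without total DMSO replicate 2 or 3 or polysome DMSO replicate 2 or 3 (highest adjusted p = 0.1), and with each culture as a block (0.0603). Prr5 and Telo2 passed in neither treatment. Among genes with a mean of at least 8 ppm, Telo2 did pass in DMSO cells (log2 fold 0.34, limma, adjusted p = 0.0498). Every polysome library lay above every total library for 4 members in DMSO cells (25.9% of all genes) and 3 in Torin1 cells (23.5%).

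These folds depend on how polysome and total libraries are set to a common scale. Scaling to the column total alone moved the median of all genes to -0.368 in DMSO cells and -0.114 in Torin1 cells, and then Mlst8 and Mapkap1 had log2 folds of -0.068 and -0.095 in DMSO cells, on the other side of 0, and the Mlst8 call in Torin1 cells was lost (0.31, adjusted p = 0.0916), while Akt1s1 stayed higher and Deptor, Rictor, Rptor, Mtor and Tti1 stayed lower. The same scaling moved the median of all genes to 0.226 for Torin1 over DMSO in polysome mRNA and to 0.289 for the difference of the folds; Rictor, with a log2 fold of 0.56, then passed in polysome mRNA (limma, adjusted p = 0.0385).

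**Figure D3:**
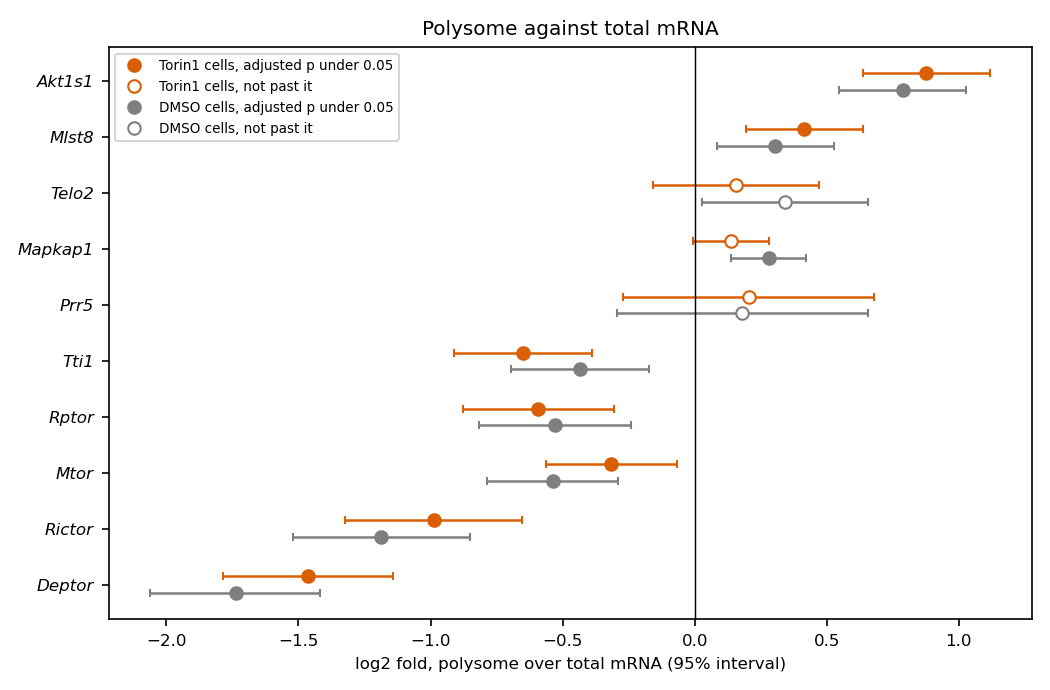
Log2 fold of polysome over total mRNA (x axis) with its 95% interval for the 10 genes, in Torin1 cells and in DMSO cells; filled circles passed an adjusted p of 0.05 in limma. The genes run from Akt1s1 at 0.88 and 0.79 to Deptor at -1.46 and -1.74, and the intervals of the treatments overlap for each gene.

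Other genes of the pathway were read from 7 lists of 45 genes around the complexes, all tested. In total mRNA 2 rose and 1 fell (6.67%, against 7.39% over all genes), and in polysome mRNA 4 rose and 3 fell (15.6%, against 10.0%). Among the 9351 genes with a mean of at least 8 ppm, 1385 passed in total and 1968 in polysome mRNA. Upstream of mTORC1, the TSC and Rheb list (5 genes) had 1 that rose in total and 2 that rose in polysome mRNA. Rhebl1, for a close relative of the GTPase Rheb that activates mTORC1, had 13.2, 16.4 and 14.6 ppm in total mRNA of Torin1 cells and 7.79, 9.86 and 9.40 ppm in DMSO cells, without overlap (log2 fold 0.70 ± 0.113; limma, adjusted p = 0.00361). Over all genes 14.7% were higher without overlap in total mRNA. In polysome mRNA the Rhebl1 log2 fold was 0.58 ± 0.113 (limma, adjusted p = 0.00705). Tsc1, for a subunit of the complex that switches Rheb off, averaged 18.8 ± 0.717 ppm in polysome mRNA of Torin1 cells and 15.0 ± 1.23 ppm in DMSO cells (SD, n = 3 each), a log2 fold of 0.33 (limma, adjusted p = 0.0235). That call was lost without polysome DMSO replicate 3 or polysome Torin1 replicate 2 (highest adjusted p = 0.0978). Rheb itself had log2 folds of 0.01 and 0.05.

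Among 10 mTORC1 substrates, 1 fell in total mRNA and 2 fell in polysome mRNA. Larp1, whose protein binds TOP mRNAs and represses them when mTORC1 is off, had 30.8, 31.2 and 32.7 ppm in total mRNA of Torin1 cells, against 41.1, 40.0 and 41.3 ppm in DMSO cells. The groups stood apart, as for 18.7% of all genes in this direction, with a log2 fold of -0.37 (limma, adjusted p = 0.0398). In polysome mRNA the log2 fold was -0.39 (limma, adjusted p = 0.0255). The total call was lost without any 1 of the 6 libraries (highest adjusted p = 0.118) and the polysome call without any polysome DMSO library (0.078). Tfeb, for a transcription factor of lysosomal genes, had 0.571, 0.709 and 0.41 ppm in polysome mRNA of Torin1 cells and 1.36, 1.36 and 1.45 ppm in DMSO cells. The log2 fold was -1.25 (limma, adjusted p = 0.0481), a call lost without any 1 library (highest adjusted p = 0.131). In total mRNA the Tfeb log2 fold was of like size, at -1.28, and did not pass (limma, adjusted p = 0.0529).

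Among 8 mTORC2 substrates none passed in total mRNA, and Sgk1, for a kinase activated by mTORC2, rose in polysome mRNA. It had 13.2, 16.4 and 8.17 ppm in Torin1 cells, against 5.95, 4.65 and 7.11 ppm in DMSO cells, without overlap (log2 fold 1.05 ± 0.234; limma, adjusted p = 0.0143), and the call was lost without polysome DMSO replicate 2 or polysome Torin1 replicate 2 (highest adjusted p = 0.0549). Over all genes 11.7% were higher without overlap in polysome mRNA. The Sgk1 log2 fold in total mRNA was 0.73 (limma, adjusted p = 0.0841).

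The kinase family and its assembly factors gave few calls. Among the 5 other genes of the family, Atr, for a DNA damage kinase, rose in polysome mRNA (log2 fold 0.70 ± 0.178, limma, adjusted p = 0.0278). It had 4.62, 5.82 and 7.22 ppm there in Torin1 cells, against 4.43, 3.12 and 3.21 ppm in DMSO cells. The call was lost without polysome DMSO replicate 2 or 3 or polysome Torin1 replicate 2 or 3 (highest adjusted p = 0.102). Among 8 further TTT and kinase assembly partners, Hsp90ab1, a cytosolic HSP90 chaperone, rose in total mRNA to 2070 ± 60.6 ppm in Torin1 cells, against 1640 ± 48.2 ppm in DMSO cells (SD, n = 3 each; log2 fold 0.34, limma, adjusted p = 0.0227). That call was lost without any 1 of the 6 libraries (highest adjusted p = 0.0945).

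The DEPTOR protein is known to be degraded in human cells after phosphorylation, through the ubiquitin ligase SCF with βTrCP and with casein kinase 1. Of 6 genes of that machinery, none passed in any of the Torin1 comparisons. Their median log2 fold was -0.151 in total and -0.097 in polysome mRNA, against -0.0115 and 0 over all genes. Over genes with a mean of at least 8 ppm, as all of these had, the medians were -0.0573 and -0.043. In total mRNA all 6 log2 folds were below 0, from -0.23 for Rbx1 to -0.02 for Btrc. Skp1a, the most abundant, had 336, 318 and 329 ppm in total mRNA of Torin1 cells and 345, 337 and 331 ppm in DMSO cells, which overlapped at 1 library (log2 fold -0.04, 95% interval -0.32 to 0.24; limma, adjusted p = 0.894). In polysome mRNA its log2 fold was -0.08 (adjusted p = 0.75), and -0.26 without polysome Torin1 replicate 3 (adjusted p = 0.0476).

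Eif3f, a subunit of translation initiation factor eIF3 described as a scaffold between mTORC1 and S6K1, was the 1 listed gene of 45 whose polysome association changed (2.22%, against 0.726% over all genes). Among the 9351 genes with a mean of at least 8 ppm, a larger share passed in this comparison, 156 genes. In polysome mRNA Eif3f had 71.5, 66.6 and 51.4 ppm in Torin1 cells, against 119, 121 and 131 ppm in DMSO cells. In total mRNA it had 206, 175 and 182 ppm in Torin1 cells and 159, 170 and 144 ppm in DMSO cells. The Torin1 libraries were the lower ones on polysomes, as for 12.3% of all genes. In total mRNA the log2 fold of 0.25 did not pass (limma, adjusted p = 0.233). The polysome log2 fold was -0.98 ± 0.115 (limma, adjusted p = 0.000255), and the difference of the folds was -1.23 ± 0.162 (95% interval -1.59 to -0.88; limma, adjusted p = 0.00247). Its annotated start, printed above, is TOP-like.

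**Figure D4:**
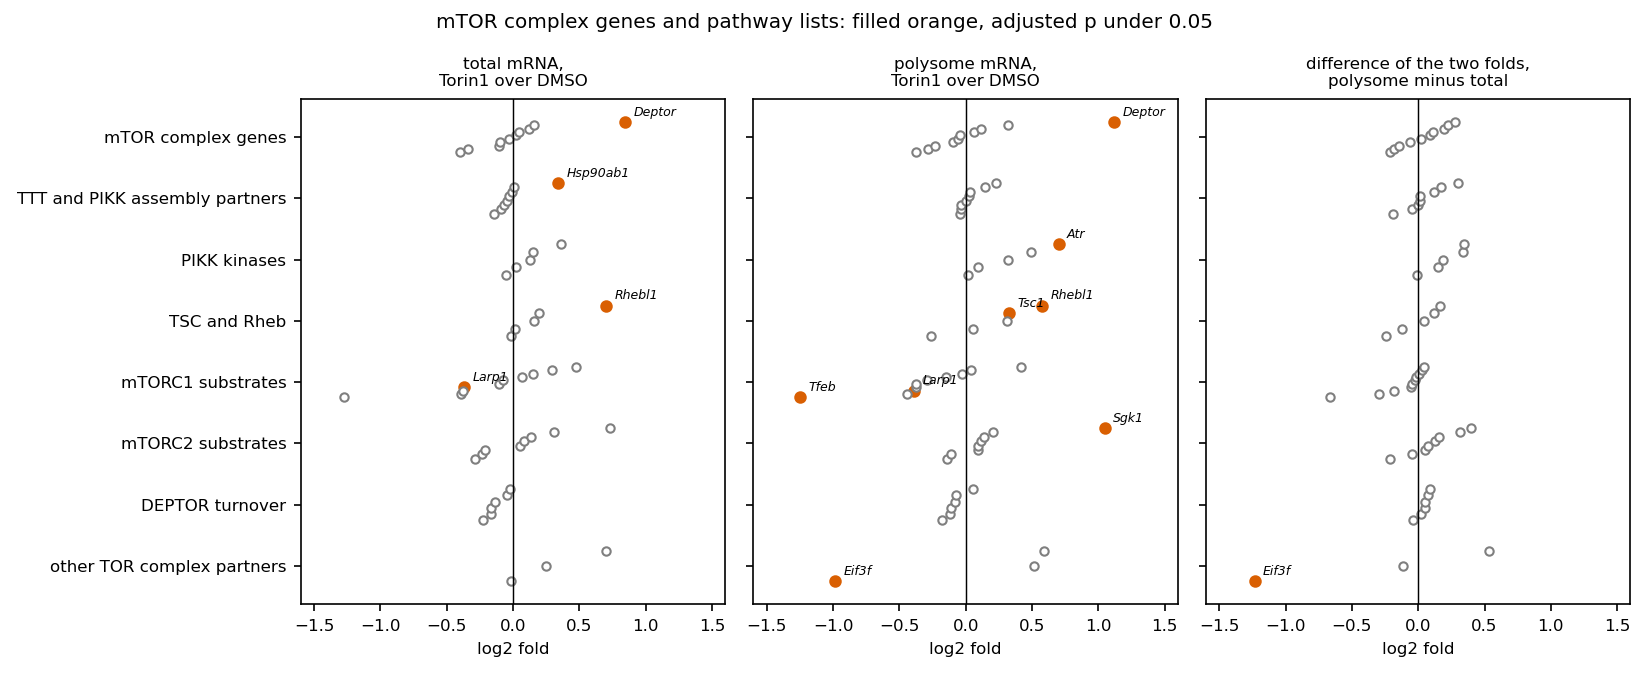
Log2 fold of Torin1 over DMSO in total mRNA (left) and polysome mRNA (middle), and the polysome fold minus the total fold (right), for the 10 mTOR complex genes and the genes of 7 pathway lists, 1 point per gene; filled points with a name passed an adjusted p of 0.05 in limma. Deptor is the filled member in the first panels (0.85 and 1.12), and Eif3f is the only filled point at right (-1.23).

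The promoter windows of the members, from 250 bases before to 50 bases after the RefSeq start, were read on both strands for 4 motifs. Members were counted by gene here, whereas the shares over all are of windows. The forkhead motif TGTTTAC was in windows of 1 of 9 members, Mapkap1, and in 3.65% of all 32851 windows. The Mapkap1 windows overlap and hold the same site. The E-box CACGTG was in a window of 1 member, Telo2, and in 7.15% of all windows. The CLEAR-like E-box, a longer motif around the same letters, and the AP-1 motif TGANTCA were in none of the members' windows, and in 0.326% and 7.81% of all windows.

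The genes whose pattern was most like that of Deptor across the 12 libraries, by Pearson's r among 8723 expressed genes, were Lancl3 (0.991), Hectd2 (0.989) and Nrp1 (0.988). These r values describe points that share libraries and scaling and carry no test. Nrp1, for a receptor of semaphorins and VEGF, averaged 36.1 ± 1.24 ppm in total mRNA of Torin1 cells and 21.8 ± 1.39 ppm in DMSO cells, and 18.8 ± 1.26 ppm in polysome mRNA of Torin1 cells and 10.7 ± 1.09 ppm in DMSO cells (SD, n = 3 each). That these genes share Deptor's pattern over fraction and treatment is fixed by how they were chosen, and their folds are given as a description. Their log2 folds of Torin1 over DMSO were 0.60, 0.56 and 0.73 in total mRNA and 0.72, 0.71 and 0.81 in polysome mRNA.

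With the polysome libraries alone in the fit, the polysome calls on Atr, Tsc1, Larp1, Tfeb and Sgk1 missed the threshold (limma, adjusted p from 0.079 to 0.185), and with scaling to the column total the calls on Hsp90ab1 in total mRNA, Larp1 in both and Tfeb in polysome mRNA did (from 0.0894 to 0.541).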

How the data were processed

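The 12 libraries were grouped by the treatment, fraction and replicate in their titles. The names mm10, HTSeq 0.6.0 and STAR 2.7.9a stand in the submitters' processing notes, without role or order. The authors deposited 1 signal per gene and library, which is not read counts; how it was scaled is not stated in the labels. Here it was rescaled with a trimmed mean of log ratios (own code, shares of 0.3 and 0.05) to the mean column total, and genes reaching a deposited 1 in 3 libraries were kept. The model, on log2(value + 1), where 1 is 0.0578 ppm, used limma 3.58.1 (R 4.3.3) with 4 group means over 12 libraries and p-values adjusted within each of 5 comparisons; folds of scarce mRNAs come out too small on it. Members and lists were chosen with earlier results of these data known. All members were named, and from each list the called genes of largest fold, at most 2 per comparison, or else the most abundant gene. Rheb, and the kinase family in polysome against total mRNA, were added after their values were seen. P-values measure the spread between what the labels call biological replicates. Alternatives were other scalings, filters and a pseudocount of 0.1, the compared groups alone, blocks and each library left out.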

Additional observations from a re-analysis of the deposited data

Results flagged for a closer look

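Eif3f differed between polysome and total mRNA in its response to Torin1. The polysome log2 fold of Torin1 over DMSO minus the total log2 fold was -1.23 (limma interaction, adjusted p = 0.00247). The polysome fold was -0.98 (adjusted p = 0.000255), and the total fold of 0.25 did not pass (adjusted p = 0.233). The difference passed in each alternative that was run. No test for outlying libraries was run within the groups of 3.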

How the results depend on the processing

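Deptor passed in total and in polysome mRNA under all 13 alternatives of each comparison (limma, highest adjusted p = 0.031 and 0.0461), and in polysome against total mRNA under all 14 in both treatments. Of the members' results, 123 of 128 kept direction and call in total mRNA, 116 of 128 in polysome mRNA, 175 of 188 in the difference of the folds, and 127 and 130 of 138 in polysome against total mRNA of DMSO and Torin1 cells.

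With scaling to the column total alone, 841 genes passed in total and 3240 in polysome mRNA, 2911 of them higher, with 2 members in polysome mRNA. Under it Rptor had -0.0018 in total mRNA. In polysome mRNA Rptor had 0.21, Mlst8 0.016, Mapkap1 0.15, Tti1 0.19 and Skp1a 0.16. The differences of the folds were 0.21 for Rptor, 0.13 for Mapkap1, 0.085 for Telo2 and 0.055 for Tti1. In polysome against total mRNA of DMSO cells Mlst8 had -0.068, Mapkap1 -0.095, Prr5 -0.19 and Telo2 -0.031. The cause was not tested. With the compared groups alone 2655 genes passed in total mRNA, 2 members among them, and 433 in polysome mRNA. With a mean of at least 8 ppm, which left out Rictor and Prr5, 2 members passed in total mRNA.

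With 1 library left out, 708 to 900 genes passed in total mRNA, 1185 to 2715 in polysome mRNA, with 1 to 3 members, and 107 to 225 in the difference of the folds. The log2 folds that changed sign were -0.10 to 0.023 for Akt1s1 and -0.21 to 0.0092 for Telo2 in total mRNA. In polysome mRNA they were -0.14 to 0.11 for Rptor, -0.057 to 0.15 for Akt1s1, -0.11 to 0.057 for Tti1 and, outside the members, -0.26 to 0.049 for Skp1a. In the difference of the folds they were -0.13 to 0.26 for Prr5, -0.17 to 0.0898 for Rptor, -0.00034 to 0.20 for Mlst8 and -0.028 to 0.18 for Akt1s1.

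Libraries of the same replicate number did not deviate together (r from -0.24 to 0.217 over 18 pairs, 9351 genes). With the number as a replicate block 1269, 1868 and 147 genes passed in total mRNA, polysome mRNA and the difference of the folds, no member's call changed, and the calls on Larp1 in total mRNA and Tfeb were lost (limma, adjusted p = 0.0618 and 0.0595). With each culture as a block 91 genes passed in the difference of the folds. The unknown depth in reads limits what can be said of every value at a few ppm, the polysome levels of Deptor, Rictor, Prr5, Atr and Tfeb among them.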
